A study of Homo sapiens with 8 samples.

Results

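The genes described here are 10 outputs and feedback regulators of the ERK pathway: DUSP4, DUSP5, DUSP6, SPRY2, SPRY4, SPRED1, ETV4, ETV5, CCND1 and PHLDA1. They were chosen by symbol, and every probe carrying one of these symbols was taken from the deposited expression table. All 10 genes were among the 12415 genes tested, and they were read by 18 probes, 16 of them above background on at least 2 arrays. A375-LM3, derived from the human melanoma cell line A375, was the source of RNA for Illumina HumanHT-12 V4 BeadChips, where a probe yields 1 intensity per array. There were 8 arrays, which form 4 groups of 2. These are tumor-dissociated cells expressing JMJD3, tumor-dissociated cells expressing vector, cultured cells expressing JMJD3 and cultured cells expressing vector. JMJD3 is a histone demethylase that removes methyl groups from lysine 27 of histone H3 and is encoded by KDM6B, and the vector cells are its control. The array titles call the JMJD3 cells "WT", and their genotype label gives JMJD3 expression. Cultured cells were grown for 1 day in serum-containing medium. Tumor-dissociated cells were taken from a primary tumor that A375-LM3 cells had formed and were then cultured for 3 passages, so growth in a tumor, dissociation and time in culture differ together between the origins and cannot be told apart. Nothing in the labels ties the numbered arrays of a group to separate cultures or tumors, and p-values therefore measure only their spread, which may be technical.

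In the ERK pathway, receptor signals pass through RAS and the kinases RAF and MEK to the kinase ERK, which phosphorylates transcription factors and switches on a set of early and delayed genes. Several of these genes feed back: the dual specificity phosphatases of the DUSP family remove phosphate from ERK, and the Sprouty and SPRED proteins restrain signalling around RAS and RAF. Other outputs carry the signal forward, among them the ETS factors ETV4 and ETV5, the cyclin D1 gene CCND1, which drives entry into the cell cycle, and PHLDA1. Melanoma is known for constitutive activity of this pathway, and transcript levels of such genes are commonly read as a sign of its output. No array measured phosphorylated ERK or any protein.

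A start-site window of 300 bases (250 before to 50 after the start, RefSeq, build GRCh38.p14) was matched for 5 of the 10 genes: DUSP6, SPRY2, SPRY4, SPRED1 and PHLDA1, with 7 windows in all. DUSP4, DUSP5, ETV4, ETV5 and CCND1 were not matched. The windows of DUSP6 and SPRY4 are printed because, of the matched genes, DUSP6 varied least and SPRY4 varied most over the arrays. Both genes lie on the minus strand and the sequences read 5′ to 3′ in the direction of the gene, at chr12:89352452-89352751 for DUSP6 and chr5:142324198-142324497 for SPRY4. Capitals mark matches, on either strand, to CGGAA (the core of ETS factor sites) or TGACG (the core of cAMP response elements).
DUSP6: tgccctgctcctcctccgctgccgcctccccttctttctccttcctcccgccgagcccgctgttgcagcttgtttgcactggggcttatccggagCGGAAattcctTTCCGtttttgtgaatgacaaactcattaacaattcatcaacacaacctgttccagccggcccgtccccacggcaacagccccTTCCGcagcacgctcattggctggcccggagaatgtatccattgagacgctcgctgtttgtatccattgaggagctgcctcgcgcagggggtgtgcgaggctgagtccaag
SPRY4: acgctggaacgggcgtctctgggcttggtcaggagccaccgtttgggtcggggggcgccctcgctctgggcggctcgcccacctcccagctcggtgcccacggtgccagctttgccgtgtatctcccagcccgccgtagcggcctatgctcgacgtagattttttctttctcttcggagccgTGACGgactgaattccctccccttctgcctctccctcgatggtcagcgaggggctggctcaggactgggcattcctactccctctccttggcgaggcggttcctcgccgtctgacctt
DUSP6 held 3 CGGAA matches and no TGACG match, and SPRY4 held no CGGAA match and 1 TGACG match. Of all 35116 windows of this length, 34.9% held CGGAA, 24.6% held TGACG and 7.71% held TGANTCA, the AP-1 site, which none of the 7 windows held. PHLDA1 held 2 CGGAA matches, 1 of the SPRY2 windows held 2 of them with 1 TGACG, and the SPRED1 window held none of the 3 motifs. The letters are a description only, since the arrays read transcript levels and not binding at a promoter.

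On every array 19913 to 19923 probes exceeded the background level of 161.4. The sorted deposited columns lay within 0.00575 of each other in log2, so nearly equal counts were fixed beforehand and do not speak to array quality. In a principal component analysis the first component took 54.0% of the variance and the second 19.6%. Tumor-dissociated JMJD3 replicate 1 and tumor-dissociated vector replicate 2 were at opposite ends of the second, so some results are also given without these arrays. Not every call that changed without them is listed. KDM6B had 1 probe, which read 162 and 160 in tumor-dissociated JMJD3 cells against 148 and 141 in tumor-dissociated vector cells, and 156 and 150 in cultured JMJD3 cells against 150 and 144 in cultured vector cells. It exceeded the background level on 1 of 8 arrays, and the labels do not say whether the introduced sequence includes its target, so it does not check them. Of 9 melanocyte markers with a probe, MLANA, TYR and S100B were above background on no array, so these defining markers of the labelled melanoma origin were not detected, while SOX10, MITF, S100A1 and MIA were above background on all 8. Among markers of other cells, 4 of 9 leukocyte markers (PTPRC and CD3E among them), 7 of 10 endothelial markers (CDH5 and VWF among them), 3 of 5 keratinocyte markers (KRT5 and KRT1 among them) and 1 of 10 fibroblast markers were above background on no array. The leukocyte markers CD68 and CD14, the endothelial marker ESAM, the keratinocyte marker KRT10 and 3 fibroblast markers were above background on all 8, and CSF1R, a macrophage receptor, read 558 on tumor-dissociated JMJD3 replicate 1 and 140 to 183 on the others. In bulk RNA, fewer cells of a type and less RNA per cell cannot be told apart.

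CCND1 was the 1 gene of the 10 that passed the test in any comparison, and it was lower in tumor-dissociated than in cultured cells with and without JMJD3. Its probe ILMN_1688480 read 3372 and 3113 in tumor-dissociated vector cells against 7370 and 8784 in cultured vector cells, means of 3243 ± 183 and 8077 ± 1000 (SD, n = 2 each). In JMJD3 cells it read 4953 and 4536 in tumor-dissociated cells against 7226 and 7639 in cultured cells, means of 4745 ± 295 and 7432 ± 292 (SD, n = 2 each). All 4 tumor-dissociated arrays were below all 4 cultured arrays, and the 2 tumor-dissociated vector arrays were the lowest of the 8. On the log2 scale after background correction, CCND1 fell by 1.34 ± 0.16 (SE) in vector cells (95% interval -1.70 to -0.98), to 0.395 times the cultured level (limma adjusted p = 0.00128, over all genes tested). In JMJD3 cells it fell by 0.66 ± 0.16 (interval -1.02 to -0.30), to 0.633 times the cultured level (limma adjusted p = 0.0464). The fall in vector cells passed the test under all 19 alternative settings, with log2 changes between -1.47 and -1.21. The fall in JMJD3 cells passed under 6 of the 19, and leaving out any 1 of the 8 arrays took its limma adjusted p to between 0.0532 and 0.249, at log2 changes between -0.72 and -0.59.

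**Figure D1:**
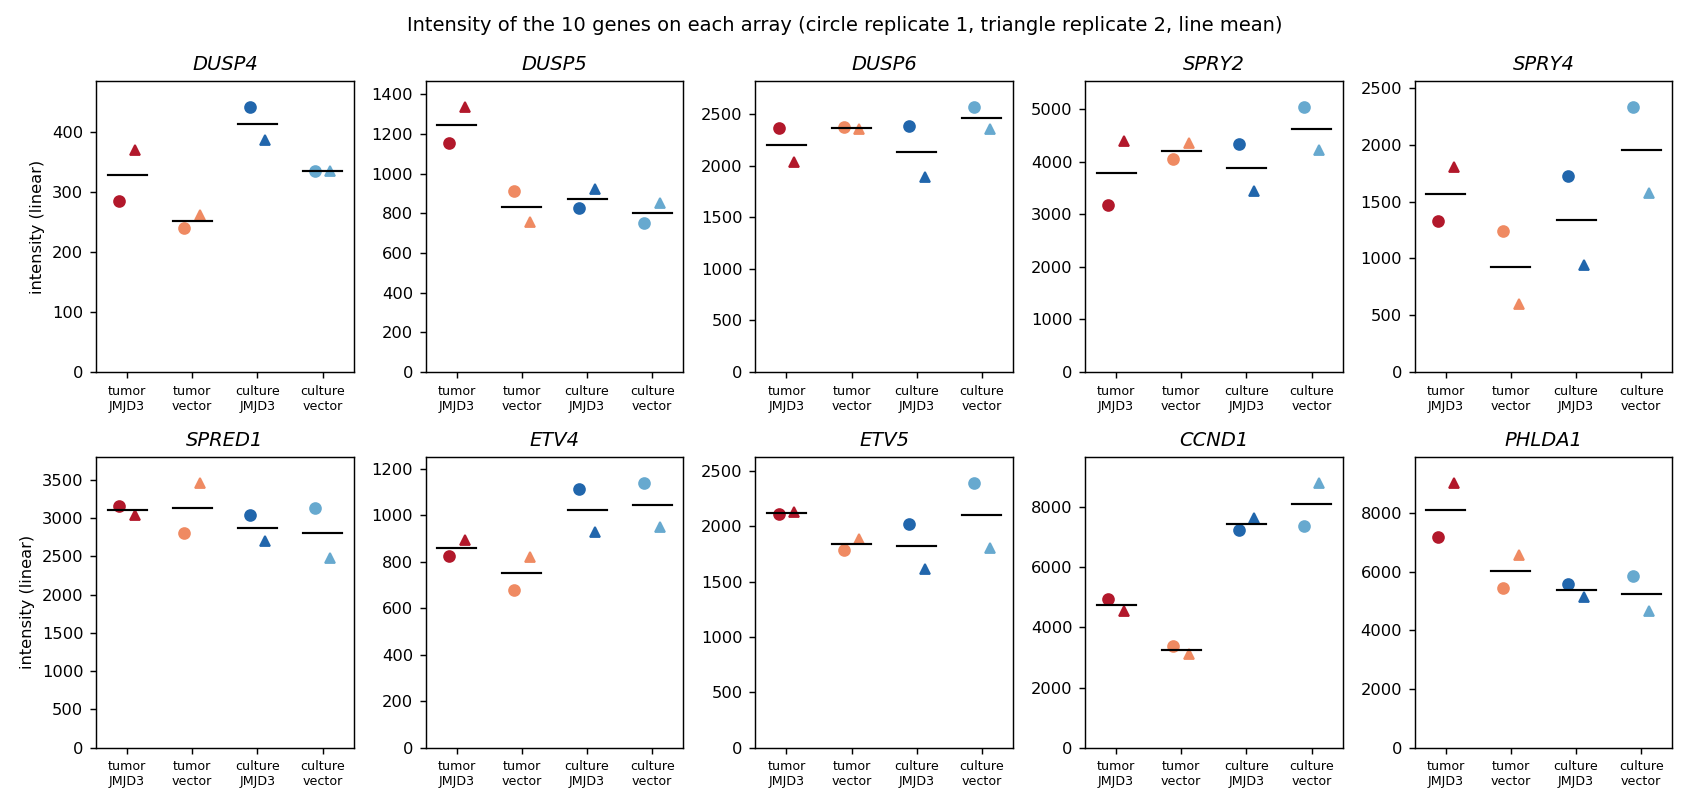
Deposited intensity (y axis, linear, from 0) of each of the 10 genes on each of the 8 arrays, by group, for the brightest probe of the gene; circles are replicate 1, triangles replicate 2 and lines the group mean. The tumor-dissociated CCND1 arrays lie below all cultured arrays, while DUSP6 stays between 1888 and 2565 on all 8.

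Between JMJD3 and vector cells, CCND1 differed by 0.56 ± 0.16 on the log2 scale (interval 0.20 to 0.93) in tumor-dissociated cells, which is 1.48 times the vector level. Both JMJD3 arrays were above both vector arrays there, but the difference did not pass the test over all genes (limma adjusted p = 0.164, and 0.0808 to 0.512 over the alternatives). In cultured cells the groups overlapped, with a log2 difference of -0.12 ± 0.16 (interval -0.48 to 0.25). The difference between those JMJD3 effects was 0.68 ± 0.23 (interval 0.17 to 1.19) and did not pass the test either (limma adjusted p = 0.550). These comparisons share arrays: the tumor-dissociated vector arrays that lie lowest enter both the fall in vector cells and the JMJD3 difference.

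By mean intensity, CCND1 ran highest in cultured vector cells, then cultured JMJD3 cells, tumor-dissociated JMJD3 cells and lowest in tumor-dissociated vector cells. The highest 2 of these groups overlapped, and the other neighbours in that order did not. CCND1 also had the smallest replicate SD of the 10 genes, 0.11 on the log2 scale, against a median of 0.18 over all genes. The genes whose profile over the 8 arrays was closest to it, by mean absolute difference of centred log2 values, were P2RY11 (0.0757), RASAL2 (0.0955) and KLHL21 (0.105). Each of these 3 was lower in tumor-dissociated vector cells than in cultured vector cells, by log2 changes of -1.23, -1.21 and -1.44. Since they were picked for following CCND1, those changes are a description.

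The ERK phosphatases did not move as a group. DUSP4 encodes a nuclear phosphatase of ERK and its relatives JNK and p38. Its brighter probe, ILMN_1808391, read 285 and 370 in tumor-dissociated JMJD3 cells against 240 and 262 in tumor-dissociated vector cells. In cultured cells it read 441 and 386 with JMJD3 against 335 and 334 with vector. The JMJD3 arrays were above the vector arrays in both origins, and the cultured arrays were above the tumor-dissociated arrays at the same genotype. The log2 difference between JMJD3 and vector was 0.58 ± 0.21 in tumor-dissociated cells (limma adjusted p = 0.262) and 0.42 ± 0.21 in cultured cells (limma adjusted p = 1.00). Between origins it was -0.65 ± 0.21 in vector cells (limma adjusted p = 0.0819) and -0.49 ± 0.21 in JMJD3 cells (limma adjusted p = 0.183), so none passed. Leaving out either tumor-dissociated JMJD3 array, which is not part of the comparison and lends it only its spread, took the origin difference in vector cells past the test, at adjusted p = 0.0358 by limma. Without replicate 2 of the tumor-dissociated JMJD3 cells, the difference in JMJD3 cells was -0.76 and passed (limma adjusted p = 0.0471).

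The dimmer DUSP4 probe, ILMN_2283398, lay between 164 and 191 on the 8 arrays, just above the background level. In cultured cells it went the other way from the brighter probe, at 170 and 164 with JMJD3 against 176 and 191 with vector. Its JMJD3 log2 difference there was -0.31 ± 0.17 (limma adjusted p = 1.00), so the DUSP4 probes disagree in sign in cultured cells.

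DUSP5 encodes a nuclear phosphatase that acts on ERK. It read 1157 and 1333 in tumor-dissociated JMJD3 cells against 911 and 757 in tumor-dissociated vector cells. Its cultured arrays read 825 and 922 with JMJD3 against 752 and 852 with vector. The tumor-dissociated JMJD3 arrays were the highest of the 8, and the other 3 groups lay together between 752 and 922. Its JMJD3 difference in tumor-dissociated cells was 0.65 ± 0.18 on the log2 scale (interval 0.24 to 1.05, limma adjusted p = 0.153). Against cultured JMJD3 cells the tumor-dissociated JMJD3 cells differed by 0.57 ± 0.18 (limma adjusted p = 0.0944). Neither passed the test, nor did the change in JMJD3 effect with origin, 0.50 ± 0.25 (limma adjusted p = 0.775).

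DUSP6 encodes the cytoplasmic phosphatase most specific for ERK and is among the most used transcript readouts of the pathway. Its brighter probe, ILMN_2396020, read 2368 and 2036 in tumor-dissociated JMJD3 cells against 2376 and 2360 in tumor-dissociated vector cells. In cultured cells it read 2387 and 1888 with JMJD3 against 2565 and 2357 with vector. The groups overlapped in each of the 4 pairwise comparisons. Log2 differences lay between -0.22 and 0.05, each ± 0.18, and the intervals allow changes of up to -0.62 and 0.45. Its range over the 8 arrays was 0.46 on the log2 scale, smaller than in all but 19.5% of the genes tested, and its window with the ETS matches is the one printed above. The dimmer probe ILMN_1677466 read 496 and 548 in tumor-dissociated vector cells against 469 and 386 in cultured vector cells, a log2 difference of 0.38 ± 0.20 (limma adjusted p = 0.299), where the brighter probe gave -0.06 ± 0.18.

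Among the inhibitors that act around RAS and RAF, SPRY4 varied most and SPRY2 and SPRED1 little. SPRY2, a Sprouty protein, read 3171 and 4396 in tumor-dissociated JMJD3 cells against 4051 and 4351 in tumor-dissociated vector cells, and 4336 and 3445 in cultured JMJD3 cells against 5035 and 4222 in cultured vector cells. SPRED1, which recruits the RAS regulator neurofibromin, read 3164 and 3045 in tumor-dissociated JMJD3 cells against 2804 and 3458 in tumor-dissociated vector cells. Its cultured arrays read 3046 and 2700 with JMJD3 against 3131 and 2474 with vector. Neither gene separated any compared pair of groups. Their log2 differences lay between -0.26 and 0.17, with standard errors of 0.21 for SPRY2 and 0.18 for SPRED1.

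SPRY4, another Sprouty protein, read 1329 and 1800 in tumor-dissociated JMJD3 cells against 1239 and 603 in tumor-dissociated vector cells (probe ILMN_2086105). In cultured cells it read 1728 and 940 with JMJD3 against 2328 and 1576 with vector. Both tumor-dissociated vector arrays were below both tumor-dissociated JMJD3 arrays and below both cultured vector arrays; the cultured JMJD3 arrays lay between the lowest and the highest array. The replicates of SPRY4 differed more than those of any other of the 10 genes, with a replicate SD of 0.60 on the log2 scale. Its range over the arrays, 2.15 on the log2 scale, exceeded that of 96.1% of the genes tested.

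The origin difference of SPRY4 in vector cells was -1.26 ± 0.42 on the log2 scale (interval -2.22 to -0.31, limma adjusted p = 0.0951), close to that of CCND1 in size but not past the test. Replicate 2 of the tumor-dissociated vector cells set much of it: without that array the difference was -0.67 (limma adjusted p = 0.387), and without replicate 1 in its place it was -1.86 (limma adjusted p = 0.0357). The JMJD3 difference in tumor-dissociated cells was 0.94 ± 0.42 (interval -0.02 to 1.89, limma adjusted p = 0.375). It was 0.34 without that same replicate 2 and 1.53 without replicate 1. In cultured cells JMJD3 and vector differed by -0.63 ± 0.42 (interval -1.59 to 0.32), and the difference of the effects was 1.57 ± 0.60 (interval 0.22 to 2.92, limma adjusted p = 0.622).

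Replicate 2 of the tumor-dissociated vector cells was also the lowest of the 8 arrays for 3 of the 4 melanocyte markers above background on every array, SOX10, MIA and S100A1, but not for MITF. SOX10, the lineage factor of neural crest and melanocytes, read 1188 and 2184 in tumor-dissociated JMJD3 cells, 1560 and 231 in tumor-dissociated vector cells, 2569 and 1956 in cultured JMJD3 cells and 3096 and 2110 in cultured vector cells. MIA, a secreted melanoma protein, read 1766 and 350 in tumor-dissociated vector cells and between 1409 and 3291 on the other arrays. MITF, the master regulator of melanocytes, read 312 on that array and 307 to 371 on the other tumor-dissociated arrays, above the 249 to 277 of the cultured arrays. The summed intensity of the 9 melanocyte markers with a probe was 3826 to 5089 in tumor-dissociated JMJD3 cells, 1762 to 4695 in tumor-dissociated vector cells, 5151 to 6492 in cultured JMJD3 cells and 6287 to 7623 in cultured vector cells. The low array was not particular to these markers. Among the tested genes of the list of further ERK outputs described below, FOS (182), EGR1 (403), MYC (406), IER3 (3312), DUSP2, DUSP7 and HMGA2 were also lowest on it. SPRY1 (4385), EPHA4 and ETV1 of that list were highest on it, and the rest were neither. The part of the markers or of these outputs in the SPRY4 values was not tested.

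**Figure D2:**
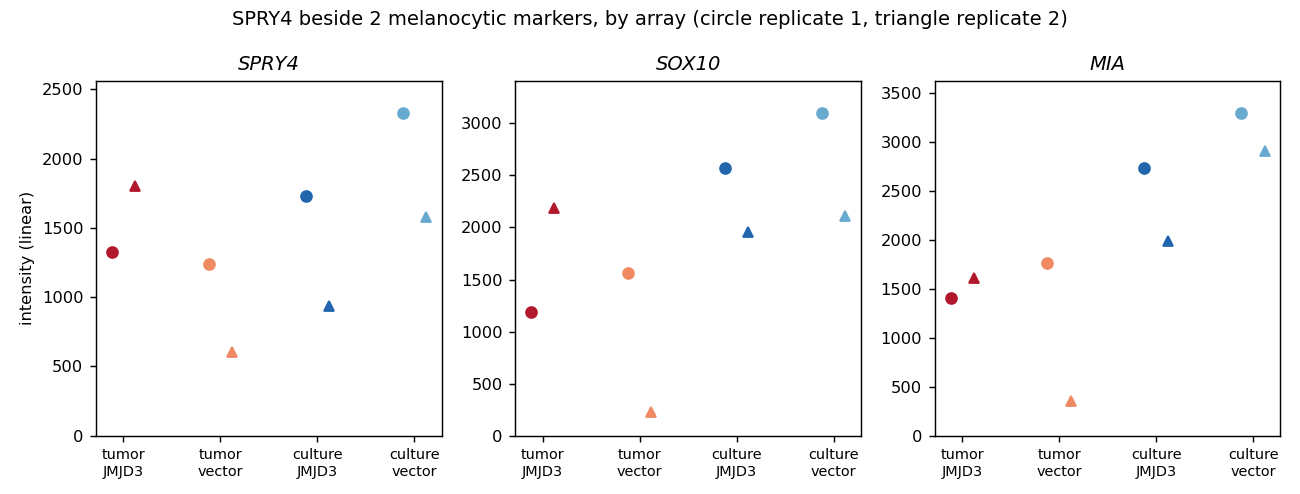
Deposited intensity (y axis, linear, from 0) of SPRY4, SOX10 and MIA on each of the 8 arrays, by group. Replicate 2 of the tumor-dissociated vector cells is the lowest array for all 3, at 603, 231 and 350.

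The second SPRY4 probe above background on all arrays, ILMN_1797596, gave the same order of signs, with -1.16 ± 0.39 between origins in vector cells (limma adjusted p = 0.104) and 0.67 ± 0.39 between JMJD3 and vector in tumor-dissociated cells (limma adjusted p = 0.563). In the second of these its groups overlapped, at 253 and 337 with JMJD3 against 256 and 193 with vector. The other SPRY4 probes were above background on 1 array (ILMN_1688811) and on 0 arrays (ILMN_1741168), so their differences have no level to rest on.

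**Figure D3:**
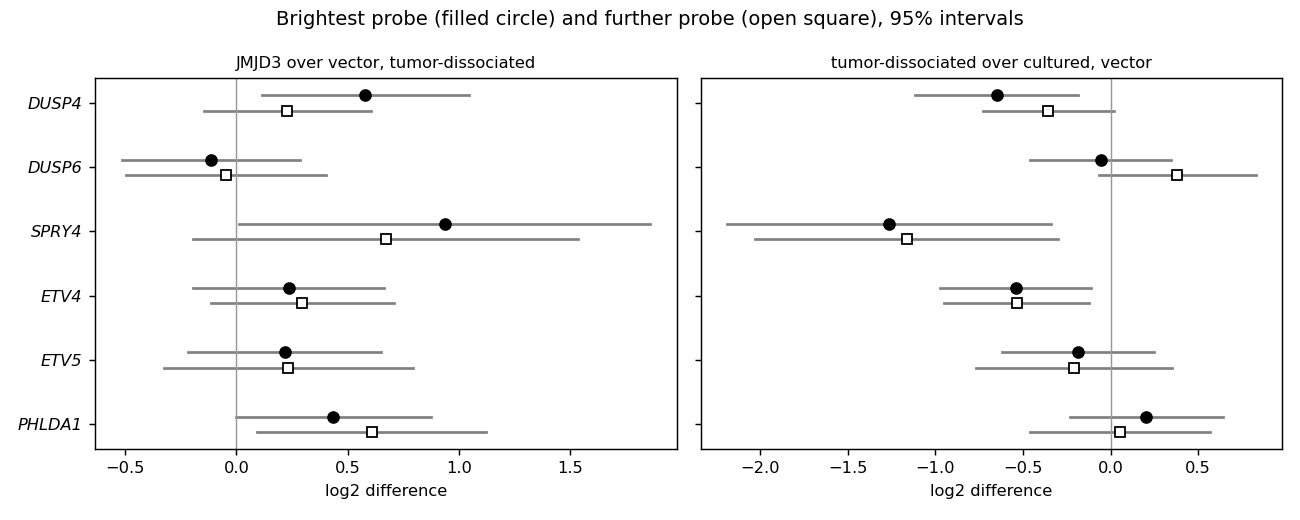
Log2 change (x axis, with 95% intervals from the fit over 22287 probes) of the brightest probe (filled circles) and a further probe (open squares) of the 6 genes with several probes, for JMJD3 against vector in tumor-dissociated cells and for origin in vector cells. Both probes of DUSP4, SPRY4, ETV4, ETV5 and PHLDA1 lie on the same side of 0 in each panel, and those of DUSP6 lie on opposite sides for origin.

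The transcription factors ETV4 and ETV5 belong to the PEA3 group of ETS factors. ETV4 read 825 and 894 in tumor-dissociated JMJD3 cells against 680 and 819 in tumor-dissociated vector cells (ILMN_1753830). Cultured arrays read 1113 and 927 with JMJD3 against 1137 and 951 with vector. All 4 tumor-dissociated arrays were below all 4 cultured arrays, as for CCND1, with log2 differences of -0.54 ± 0.19 in vector cells (limma adjusted p = 0.106) and -0.27 ± 0.19 in JMJD3 cells (limma adjusted p = 0.403). Its other probe, ILMN_2341661, gave -0.54 ± 0.18 and -0.20 ± 0.18, and its tumor-dissociated and cultured JMJD3 arrays overlapped.

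ETV5 read 2113 and 2129 in tumor-dissociated JMJD3 cells against 1790 and 1890 in tumor-dissociated vector cells, and 2018 and 1618 in cultured JMJD3 cells against 2390 and 1809 in cultured vector cells (ILMN_1739222). In tumor-dissociated cells the JMJD3 arrays of both factors lay above the vector arrays, by 0.23 ± 0.19 for ETV4 (limma adjusted p = 0.666) and 0.22 ± 0.19 for ETV5 (limma adjusted p = 0.704). In cultured cells the arrays of each overlapped. The dimmer ETV5 probe, ILMN_1723260, gave 0.23 ± 0.25 in tumor-dissociated cells with overlapping arrays.

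PHLDA1, a pleckstrin homology domain protein induced by growth factor signalling, read 7184 and 9016 in tumor-dissociated JMJD3 cells against 5436 and 6582 in tumor-dissociated vector cells. The cultured arrays read 5586 and 5139 with JMJD3 against 5836 and 4646 with vector (ILMN_1687978). The tumor-dissociated JMJD3 arrays were the highest of the 8, the pattern DUSP5 also had. Its log2 difference was 0.43 ± 0.19 between JMJD3 and vector in tumor-dissociated cells (interval -0.00 to 0.87, limma adjusted p = 0.367) and 0.60 ± 0.19 between tumor-dissociated and cultured JMJD3 cells (limma adjusted p = 0.100). The second probe, ILMN_3251550, gave 0.61 ± 0.23 and 0.55 ± 0.23 for the same comparisons (limma adjusted p = 0.326 and 0.194). With a trended and robust prior the origin difference in JMJD3 cells passed (limma adjusted p = 0.0491).

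Counted over the 10 genes, none passed the test between JMJD3 and vector in tumor-dissociated cells, where 0.822% of all genes tested passed. The JMJD3 arrays were wholly above the vector arrays for 7 of the 10: DUSP4, DUSP5, SPRY4, ETV4, ETV5, CCND1 and PHLDA1. No gene had the reverse. Among all genes, 19% had JMJD3 arrays wholly above and 19.6% wholly below. The median log2 difference of the 10 was 0.33, beside -0.00 over all genes, and 3 of the 10 had an unadjusted limma p under 0.05, as did 13.7% of all genes. Leaving out 1 array at a time moved that median between 0.23 and 0.40. Without both arrays that lay apart on the second component it was 0.45, with 9 of 10 differences positive. The members were chosen with earlier results of these data known and share arrays, so the count and the median describe these arrays and carry no test.

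**Figure D4:**
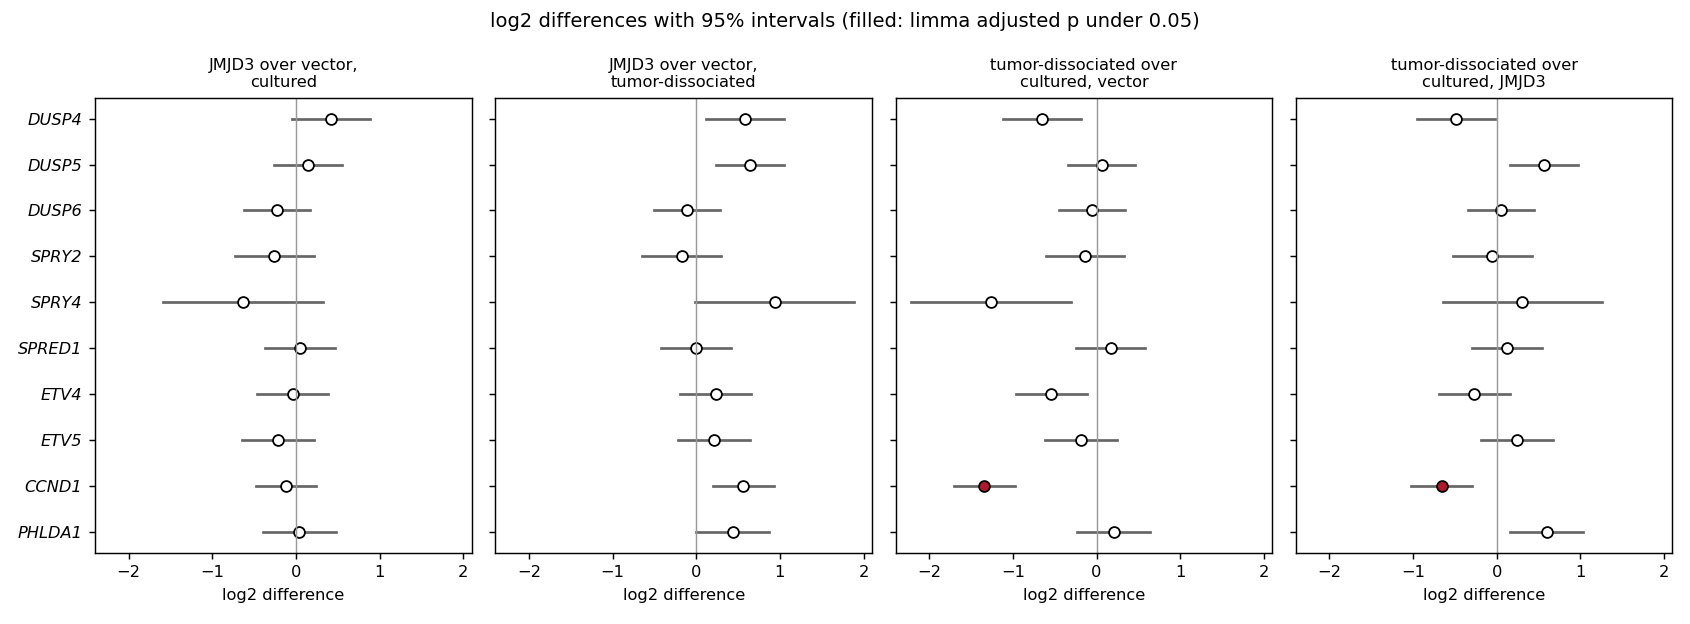
Log2 change with 95% interval (x axis) of each of the 10 genes in the 4 pairwise comparisons, from limma on all 8 arrays; filled points passed the test. CCND1 has the 2 changes that passed the test, both between origins, and 7 of 10 changes with JMJD3 in tumor-dissociated cells are positive.

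In cultured cells, none of the 10 passed between JMJD3 and vector, where 0.0886% of all genes passed, and none had an unadjusted limma p under 0.05, against 4.34% of all genes. DUSP4 was the 1 gene whose arrays did not overlap, and it was higher with JMJD3, as were 17.8% of all genes by this count, while 18.5% were lower. The median log2 difference was -0.08 (-0.16 to 0.018 without 1 array) beside -0.01 over all genes, and single differences lay between -0.63 and 0.42. Comparing the JMJD3 effect in the origins, 0 of the 10 passed, beside 0.105% of all genes. Of the 10, 9 were positive and 2, SPRY4 and CCND1, had an unadjusted limma p under 0.05, as did 6.88% of all genes. The median was 0.33 (0.18 to 0.44 without 1 array), beside 0.0054 over all genes. The count of positive values was 7 without replicate 2 of either JMJD3 group and 10 without replicate 2 of the tumor-dissociated vector cells. This comparison holds all 4 groups, so it is not separate from the others.

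Between origins in vector cells, CCND1 alone of the 10 passed, beside 10.1% of all genes, 3.99% of them lower. The arrays did not overlap for 4 of the 10, DUSP4, SPRY4, ETV4 and CCND1, all lower in tumor-dissociated cells, where 30.8% of all genes were wholly lower and 26.7% wholly higher. The same 4 genes had an unadjusted limma p under 0.05, against 25.7% of all genes. Median log2 change was -0.16 beside -0.03 over all genes, and it lay between -0.03 and -0.33 when 1 array was left out, the extremes without replicate 1 and replicate 2 of the cultured vector cells. In JMJD3 cells, CCND1 alone passed, beside 5.96% of all genes, 2.2% of them lower. DUSP4, ETV4 and CCND1 were wholly lower and DUSP5, ETV5 and PHLDA1 wholly higher in tumor-dissociated cells, against 29% and 26.6% of all genes. DUSP4, DUSP5, CCND1 and PHLDA1 had an unadjusted limma p under 0.05, against 25% of all genes. The median was 0.08 beside -0.01 over all genes, and it lay between -0.15 and 0.22 when 1 array was left out, the extremes without replicate 2 and replicate 1 of the cultured JMJD3 cells.

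The 10 genes therefore did not share 1 order of the groups. Mean intensity was lowest in tumor-dissociated vector cells for 4 of them, in cultured vector cells for 3, in cultured JMJD3 cells for 2 and in tumor-dissociated JMJD3 cells for 1. It was highest in cultured vector cells for 5 and in tumor-dissociated JMJD3 cells for 3. Replicate SD had a median of 0.19 on the log2 scale over the 10, beside 0.18 over all genes.

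A list of 18 further ERK outputs and early response genes, 15 of which were tested, was tested between origins too. In vector cells 2 of the 15 passed as higher in tumor-dissociated cells and 3 as lower, beside 10.1% of all genes called, with a median log2 change of -0.47. In JMJD3 cells 2 of the 15 were called, beside 5.96% of all genes. SPRY1, a Sprouty gene not among the 10, rose by 2.57 ± 0.23 in log2 units (limma adjusted p = 0.000282), reading 2760 and 4385 in tumor-dissociated vector cells against 706 and 636 in cultured vector cells. In JMJD3 cells SPRY1 rose by 2.43 ± 0.23 (limma adjusted p = 0.00126), reading 2440 and 2270 in tumor-dissociated cells against 572 and 473 in cultured cells. It passed in both comparisons under all 19 alternatives, while SPRY2 and SPRY4 passed in neither on all 8 arrays.

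DUSP1, a phosphatase of p38, JNK and ERK and an immediate early gene, rose by 0.74 ± 0.17 in vector cells (limma adjusted p = 0.0282) and by 1.08 ± 0.17 in JMJD3 cells (limma adjusted p = 0.0131). The genes that passed as lower in vector cells were FOSL1, a FOS family subunit of AP-1 (-1.09 ± 0.23, limma adjusted p = 0.0173), IER3, an early response survival gene (-1.06 ± 0.24, limma adjusted p = 0.0264), and LIF, a cytokine of the interleukin 6 family (-0.59 ± 0.15, limma adjusted p = 0.0444). In JMJD3 cells none of the 15 passed as lower on all 8 arrays, 8 of the 15 values were above 0, and the median was 0.00. FOSL1 was at -0.79 ± 0.23 there (limma adjusted p = 0.0723) and passed as lower under 3 of the 19 alternatives: a trended and robust prior (limma adjusted p = 0.0493), a replicate block (0.0284) and without replicate 2 of the tumor-dissociated JMJD3 cells (0.0378). Without replicate 2 of the tumor-dissociated vector cells, or without either cultured vector array, SPRY1 alone passed in vector cells, and without replicate 1 of the tumor-dissociated vector cells SPRY1 passed as higher and IER3 and MYC as lower. LIF passed under 7 of the 19 alternatives. The DUSP1 rise in JMJD3 cells was lost without replicate 1 of the tumor-dissociated JMJD3 cells or either cultured JMJD3 array (limma adjusted p = 0.0612, 0.0827 and 0.0894).

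**Figure D5:**
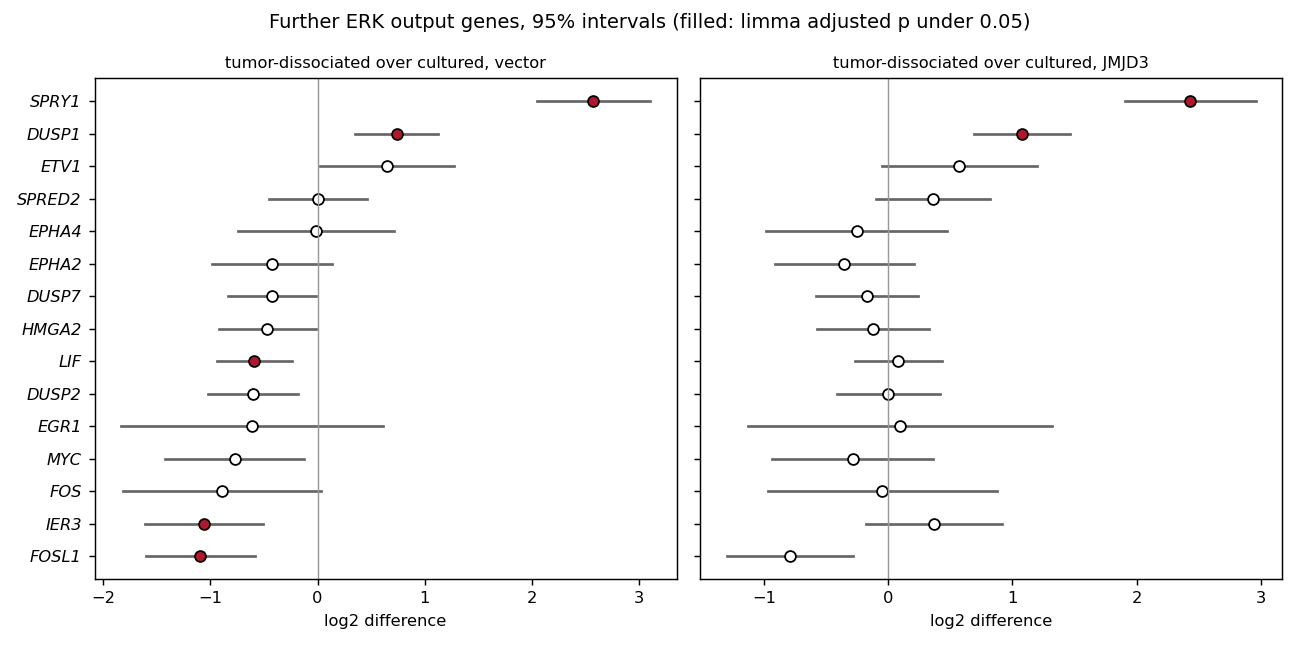
Log2 change with 95% interval (x axis) of the 15 tested further ERK outputs between tumor-dissociated and cultured cells, for vector cells and for JMJD3 cells; filled points passed the test. SPRY1 lies farthest above 0 in both, at 2.57 and 2.43, and FOSL1 and IER3 lie below 0 in vector cells.

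Between JMJD3 and vector none of the 15 passed in either origin on all 8 arrays. The extremes in tumor-dissociated cells were IER3 at 0.95 ± 0.24 (limma adjusted p = 0.123) and SPRY1 at -0.58 ± 0.23 (limma adjusted p = 0.320), and the median was 0.36. IER3 read 8273 and 6391 in tumor-dissociated JMJD3 cells against 4363 and 3312 in tumor-dissociated vector cells, with no overlap. With the replicate number as a block, this IER3 difference passed (limma adjusted p = 0.0178), as did the change in its JMJD3 effect with origin (1.43, limma adjusted p = 0.0406). In cultured cells the extremes were HMGA2 at 0.31 and IER3 at -0.47, each with a limma adjusted p of 1.00, and the median was -0.15.

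Of 24 components of the cascade itself, 17 were tested and the others were not analysed here or lay below the filter. In vector cells 1 of the 17 passed between origins on all 8 arrays, beside 10.1% of all genes. It was RPS6KA1, a ribosomal S6 kinase activated by ERK, which was lower in tumor-dissociated cells (-0.95 ± 0.17, limma adjusted p = 0.00951). That call was lost without replicate 2 of the tumor-dissociated vector cells or either cultured vector array (limma adjusted p = 0.0629, 0.0640 and 0.0822). In JMJD3 cells 2 of the 17 passed, beside 5.96% of all genes. MAPK3, the gene of ERK1, was higher there (0.85 ± 0.20, limma adjusted p = 0.0432), as was MAP2K2, the gene of MEK2 (0.76 ± 0.19, limma adjusted p = 0.0499), and each passed under 8 of the 19 alternatives. MAPK3 was at 0.70 ± 0.20 in vector cells (limma adjusted p = 0.0598) and passed there under 8 alternatives as well. RPS6KA2 passed as higher in vector cells under 3 alternatives (0.74 ± 0.31 on all 8 arrays, limma adjusted p = 0.167), and SHOC2 passed as lower under 1. None passed between JMJD3 and vector in either origin on all 8 arrays, with extremes of 0.26 for MAP2K2 and -0.67 for RPS6KA2 in tumor-dissociated cells. RPS6KA2 passed there, at -1.17, without replicate 2 of the tumor-dissociated JMJD3 cells (limma adjusted p = 0.0396).

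Of the other G1 cyclins, cyclin-dependent kinases and RB1, 7 were tested and none passed in any comparison on all 8 arrays. Most of their values were also below 0 between origins, 6 of 7 in vector cells and 7 of 7 in JMJD3 cells. CDK6 passed as lower in vector cells without background correction (-0.42, limma adjusted p = 0.0438), and RB1 did without both arrays that lay apart (-0.83, limma adjusted p = 0.0276). Between origins their median log2 change was -0.29 in vector cells, where CCNE1 was at -0.61 ± 0.27 (limma adjusted p = 0.187) and CDK4, the kinase partner of cyclin D1, at 0.00 ± 0.15. In JMJD3 cells the median was -0.40, with RB1 at -0.64 ± 0.21 (limma adjusted p = 0.108) and CDK4 at -0.02 ± 0.15. Whether CCND1 differed from these genes was not tested. Of 3 phosphatases that act on JNK and p38 and not mainly on ERK, DUSP16 was higher in tumor-dissociated vector cells (0.83 ± 0.19, limma adjusted p = 0.0274) and the others did not pass, where 10.1% of all genes passed. That call was lost without replicate 1 of the tumor-dissociated vector cells or either cultured vector array (limma adjusted p = 0.121, 0.103 and 0.189), and without background correction, at 0.42 (limma adjusted p = 0.0567).

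Fibroblast markers moved with origin beside all of these values. The summed intensity of 10 such markers was 4025 to 6550 in tumor-dissociated JMJD3 cells, 3823 to 4157 in tumor-dissociated vector cells, 2175 to 2256 in cultured JMJD3 cells and 1907 to 2044 in cultured vector cells. The sum of 6550, on tumor-dissociated JMJD3 replicate 1, came mostly from ACTA2 (2403) and PDGFRB (2000). Of 9 tested, 6 passed as higher by origin in vector cells: COL1A1, COL1A2, PDGFRA, PDGFRB, POSTN and ACTA2. The same genes except PDGFRA, 5 in all, passed in JMJD3 cells. Of all genes, 10.1% and 5.96% passed in either direction. DCN, LUM and FAP passed in neither on all 8 arrays, and THY1 was above background on no array. COL1A1 and POSTN exceeded the background level on 5 arrays, the tumor-dissociated arrays among them. They passed the filter through the groups where they were high. Their calls, which the counts include, are therefore a description and no test. Leukocyte markers summed to 2638 to 3392 in tumor-dissociated JMJD3 cells, 2586 to 2905 in tumor-dissociated vector cells, 2816 to 2888 in cultured JMJD3 cells and 2850 to 3038 in cultured vector cells. LYZ, the lysozyme gene, was lower by origin in vector cells (-2.18 ± 0.36, limma adjusted p = 0.00676) and in JMJD3 cells (-1.58 ± 0.36, limma adjusted p = 0.0412), the second under 11 of 18 alternatives. In vector cells LYZ read 215 and 150 in tumor-dissociated cells against 468 and 404 in cultured cells, and the 150 lay below the background level. The LYZ change in vector cells lay between -2.80 and -1.07 over the alternatives. In JMJD3 cells it was -0.71 with probes of a gene averaged (limma adjusted p = 0.130). Of the 4 leukocyte markers tested, LYZ alone passed on all 8 arrays, and 2 had values above 0 in each origin comparison. CSF1R was at 1.59 ± 0.63 in JMJD3 cells (limma adjusted p = 0.160). With probes averaged, CD68 passed as higher in vector cells, at 0.70 (limma adjusted p = 0.0431). Endothelial markers summed to 1440 to 1483 over the 8 arrays, mostly from probes near background. Of them PECAM1 was higher in tumor-dissociated JMJD3 cells, at 180 and 175 against 144 and 145 in cultured JMJD3 cells (limma adjusted p = 0.0225, and under 12 of 18 alternatives). It exceeded the background level only on those 2 tumor-dissociated arrays, and so passed the filter through the group where it was high. Its p-value is therefore a description and no test. The log2 change was 0.82, and 0.29 without background correction. Keratinocyte markers summed to 3227 to 4476, mostly KRT10, and KRT14 was lower in tumor-dissociated vector cells (-1.88 ± 0.24, limma adjusted p = 0.00189). Both KRT14 readings there, 137 and 134, lay below the background level, against 213 and 238 in cultured vector cells. The size of the change therefore rests on the background correction, and it lay between -2.03 and -0.73 over the alternatives. The part of these markers in the origin differences of CCND1, SPRY1 and the other genes was not tested.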

How the data were processed

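Total RNA of 8 A375-LM3 samples was labelled with biotin and hybridised to Illumina HumanHT-12 V4 BeadChips, per the labels' protocols. Arrays were read on a HiScan and analysed in GenomeStudio (framework 2011.1, Gene Expression module 1.9.0), per the series' design text. The deposited values are intensity on a linear scale for 47323 probes. Their normalization: not given in the sources used here, but sorted columns lay within 0.00575 of each other in log2. A table of 16 columns whose names match no label was not used. From the deposited intensity values, the background mode was 139.7, and a probe counted as above background past 161.4, the one-sided 0.01 point of the values mirrored about that mode. This rule replaced the detection p-values of the intended filter. Values were corrected with normexp (offset 16) and taken to log2. Probes carried 1 symbol (30113), several (8, not named) or none (17202). Probes above background on at least 2 arrays (22287) gave 12415 genes, each by the probe with the highest mean. A single limma fit (version 3.58.1, R 4.3.3) on all 4 groups gave 5 comparisons, called at a Benjamini-Hochberg adjusted p under 0.05 over all genes. The fit was tested on simulated data. For groups of 2, exact permutation gives p = 0.333 at best, so p-values rest on the fit. No batch was fitted, slides and scans being unlabelled, and the number of arrays limits the precision. The members and lists were chosen with earlier results of these data known. All members are described. Of the other lists and the cell type markers, called genes are named. The largest changes each way are given for some of the comparisons where none was called. For CCND1, the 3 nearest profiles are named. Alternatives were no background correction, an offset of 50, other filters and probe rules, only the groups compared, array weights, a trended and robust prior, a replicate block, and leaving out each array. Leaving out the pair of arrays that lay apart, and running the alternatives on genes of the other lists, were chosen after seeing the data.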

Additional observations from a re-analysis of the deposited data

How the results depend on the processing

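Of 940 values of the members under the alternatives, 883 kept their direction and side of the threshold, 13 lost a call, 7 gained one and 37 changed sign. None of the 37 was called in either fit, their largest size was 0.19 and their lowest limma adjusted p 0.596. The cause of the changes below was not tested, except that fewer arrays or genes enter some fits. Without both arrays that lay apart, log2 changes with JMJD3 in tumor-dissociated cells were 0.12 for SPRY2 and 0.12 for SPRED1. The same setting gave -0.063 for DUSP6 and 0.19 for SPRY2 between origins in JMJD3 cells, and -0.011 for DUSP6 and 0.078 for SPRED1 in the difference of effects. With probes of a gene averaged, DUSP6 was at 0.16 between origins in vector cells and at -0.00065 in the difference of effects. Leaving out 1 array turned signs within these ranges. With JMJD3 in cultured cells they were -0.13 to 0.22 for SPRED1, -0.18 to 0.11 for ETV4, -0.24 to 0.012 for CCND1 and -0.13 to 0.21 for PHLDA1. In tumor-dissociated cells they were -0.42 to 0.068 for SPRY2 and -0.16 to 0.15 for SPRED1. Between origins in vector cells they were -0.092 to 0.21 for DUSP5, -0.12 to 0.0072 for DUSP6, -0.0086 to 0.34 for SPRED1 and -0.40 to 0.026 for ETV5. In JMJD3 cells they were -0.13 to 0.23 for DUSP6, -0.29 to 0.19 for SPRY2 and -0.17 to 0.79 for SPRY4. In the difference of effects they were -0.11 to 0.44 for DUSP4, -0.070 to 0.29 for DUSP6, -0.16 to 0.33 for SPRY2 and -0.23 to 0.13 for SPRED1.

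Between origins in vector cells, 2 members were called with only the groups compared and 2 without both arrays (1 on all arrays, 1 to 2 without 1 array). In JMJD3 cells (1 on all arrays) 0 were called without a filter, with 1 value per probe, with only the groups compared, with array weights and without both arrays, 2 with a trended and robust prior, and 0 to 1 without 1 array. In the other 3 comparisons 0 were called throughout.

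Over all genes, JMJD3 in cultured cells gave 11 calls, 5 without background correction, 5 with the filter on all 8 arrays, 44 with only the groups compared, 42 with array weights, 44 without both arrays and 0 to 36 without 1 array. In tumor-dissociated cells the 102 calls were 65, 55, 15, 57 and 25 under the same settings and 16 to 426 without 1 array. Between origins, 1258 calls in vector cells were 348 to 1581 without 1 array, and 740 in JMJD3 cells were 418 without a filter, 263 with only the groups compared, 368 without both arrays and 39 to 1307 without 1 array. The 13 calls of the difference of effects were 7 with the filter on all 8 arrays, 22 with a trended and robust prior and 0 to 69 without 1 array. With only the groups compared this difference could not be fitted. Where 1 array of a group is left, it is assumed to vary like the other groups.

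The labels give no reason to pair arrays of the same number, and deviations of same-numbered arrays correlated between 0.0463 and 0.371 over 6 pairs of groups, 3 of them over 0.1, highest between the cultured groups. This does not settle whether the numbers pair the arrays. With the replicate number as a block, calls were 168 for JMJD3 in tumor-dissociated cells, 1161 between origins in JMJD3 cells and 35 for the difference of effects, and the counts of members called did not change. Within both numbers, DUSP6, SPRY2, SPRY4, ETV4, ETV5 and CCND1 were lower with JMJD3 in cultured cells, and DUSP4 and DUSP5 were higher. SPRED1 and PHLDA1 differed in sign between the numbers. None of the members passed there with the block. The share of all genes with the same sign in both numbers was not counted, so these signs are a description and no result about the members. Signs within the numbers are not listed for the tumor-dissociated groups.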
